A study of Mus musculus with 6 samples.

Results

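The 9 genes described here encode the type I interferon receptor and the factors that act just behind it: the receptor chains Ifnar1 and Ifnar2, the receptor kinases Jak1 and Tyk2, the transcription factor subunits Stat2 and Irf9, the interferon regulatory factors Irf7 and Irf1, and the feedback inhibitor Socs1. They were chosen by name and looked up by NCBI gene identifier among the 17254 genes seen in any library. All 9 were found. RNA-seq was performed on 6 libraries of mouse neural stem and progenitor cells (NSPCs), 2 per group, collected after 48 h as untreated control, with 5 µM paraquat (PQ), or with 5 mM N-acetylcysteine (NAC). PQ is a redox-cycling compound that generates superoxide inside cells, and NAC is a thiol antioxidant. The methods describe an immortalized NSPC culture that was derived from neonates, lacks Ink/Arf in all groups and holds a mix of cells, so the groups share this deletion. Control 1 and PQ 1 are labelled Ink/Ark knockout and C57BL/6, whereas the labels of control 2, PQ 2, NAC 1 and NAC 2 give no genotype or strain. The submitters' notes also name another processing for control 1 and PQ 1 (mm9 with TopHat2 and Cufflinks) than for the other 4 libraries (mm10 with HISAT2 and RSEM), and another extraction kit and library preparation. PQ and control thus have 1 library of each processing, and both NAC libraries are of the second. Nothing in the labels states that the libraries of a group came from separate cultures, and the p-values then measure only the spread between these libraries. The expected counts, estimates of the reads that belong to each gene, summed to between 9680436 and 10698241 per library.

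Type I interferons bind a receptor made of IFNAR1 and IFNAR2, which carry the kinases TYK2 and JAK1. The kinases phosphorylate STAT proteins, among them STAT2, which acts with IRF9 in ISGF3, a complex that binds interferon-stimulated response elements (ISREs) in the promoters of antiviral genes. STAT dimers formed behind many cytokine receptors bind another element, the gamma-activated site (GAS). Several parts of the pathway, among them Stat2, Irf9, Irf7, Irf1 and Socs1, are themselves known interferon-inducible genes, so their transcripts are both machinery and readout. Neural progenitors carry the receptor and respond to type I interferon.

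In PQ-treated NSPCs Stat2, Irf9 and both IRFs were higher than in control, whereas the receptor chains and Jak1 lay near their control levels. The level of Irf7 rose most among the members, to 2.53 times control. In NAC-treated cells Irf1 was higher than in control, and Irf7, Stat2 and Irf9 lay close to control. Genes with a mean FPKM (fragments scaled by transcript length and library total) of at least 1 were tested, and a gene was called at an adjusted p under 0.05 by edgeR with Benjamini-Hochberg adjustment over all 11717 genes tested. Log2 fold changes are given with their standard error (SE). Of the 8 members tested, 4 (Stat2, Irf9, Irf7 and Irf1) were called higher in PQ than in control (1 without PQ 1), where 9.76% of all tested genes were higher and 9.45% lower. In NAC against control, 1 of the 8 (Irf1) was called higher, where 9.01% of all tested genes were higher and 9.64% lower, a share near the background. In PQ against NAC, 4 of the 8 (Tyk2, Stat2, Irf9 and Irf7) were called higher (2 without PQ 1 and 1 without NAC 1), where 16.0% of all tested genes were higher and 15.7% lower. The median log2 fold change of the 8 members was 0.42 in PQ over control, 0.02 in NAC over control and 0.27 in PQ over NAC, beside 0.00 over all tested genes in each. All genes called numbered 2250 in PQ against control (866 without PQ 1), 2186 in NAC against control (1286 without NAC 1 and 1427 without NAC 2) and 3708 in PQ against NAC (2343 without PQ 1 and 2407 without NAC 1). The comparisons of PQ and of NAC with control use the same 2 control libraries, and the comparison of PQ with NAC uses the treated libraries again, so they are not independent. In these bulk libraries, fewer cells that express a gene and less of its RNA per cell cannot be told apart.

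**Figure D1:**
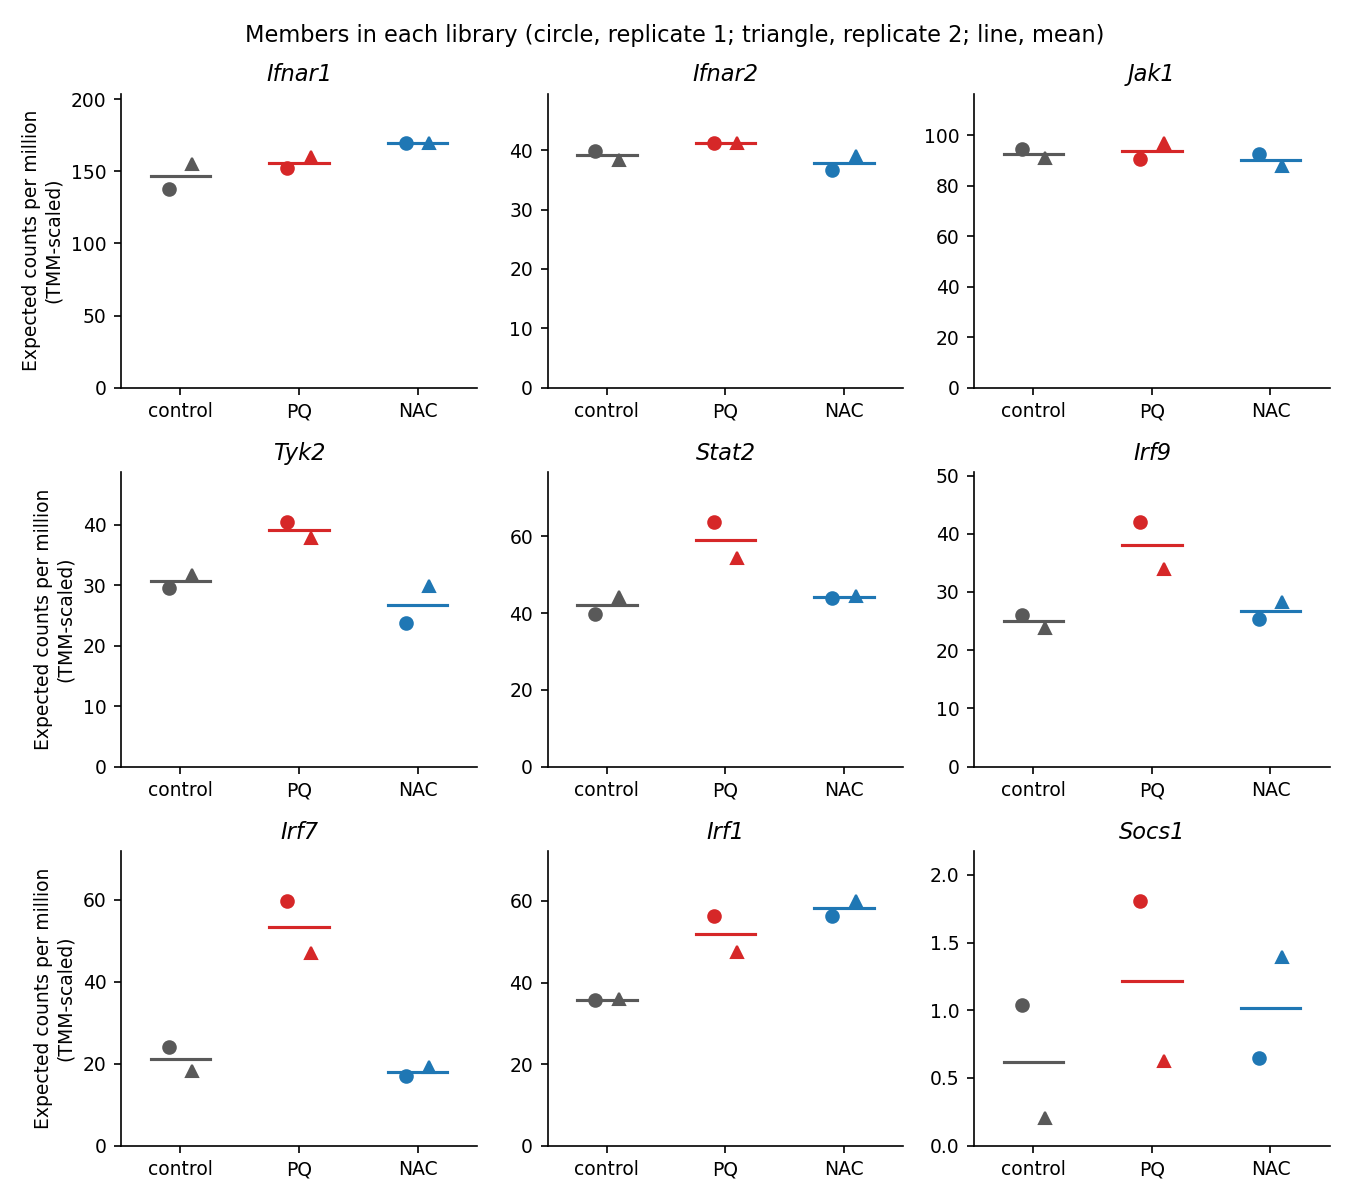
TMM-scaled expected counts (CPM) of the 9 members (y axis, starting at 0) in each library, by group (x axis). Circles are replicate 1, triangles replicate 2 and lines the mean of 2 libraries. Both PQ libraries lie above all control and NAC libraries for Tyk2, Stat2, Irf9 and Irf7, and for Irf1 both PQ and both NAC libraries lie above control.

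The receptor chains are given first. Ifnar1 (NCBI gene 15975), which binds TYK2, had 138 and 155 CPM in control 1 and 2, 152 and 160 in PQ 1 and 2, and 170 in each NAC library, on a scale of expected counts over the TMM-scaled library total. The NAC libraries were the highest, and control and PQ overlapped. Its log2 fold change was 0.09 in PQ over control (SE 0.10, edgeR adjusted p = 0.57) and 0.22 in NAC over control (SE 0.10, edgeR adjusted p = 0.12), so neither was called. Its expected counts were fractional in all 6 libraries, as happens where reads are shared with another gene or locus. Ifnar2 (NCBI gene 15976), the high-affinity binding chain that carries JAK1, had 39.9 and 38.4 CPM in control, 41.3 and 41.2 in PQ, and 36.7 and 39.0 in NAC. These levels lay within a narrow range, with PQ marginally above both other groups. Its log2 fold change in PQ over control was 0.08 (SE 0.11, edgeR adjusted p = 0.69), and plus and minus 2 standard errors spanned -0.15 to 0.30. In GENCODE vM1, exons of Ifnar2 share 569 of 3898 bases (14.6%) with those of Il10rb, the next gene on the same strand. The expected counts of Ifnar2 were whole in all 6 libraries. The mean transcript length listed for Ifnar2 was 1437 and 1430 bases in control and 1688 and 1607 in NAC, where 0.388% of 2837 tested genes with several transcripts had both NAC lengths at least 10% outside both controls.

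The 2 kinases differed from each other. Jak1 (NCBI gene 16451), the kinase of IFNAR2 that also serves many other cytokine receptors, had 94.6 and 91.0 CPM in control, 90.8 and 97.2 in PQ, and 92.5 and 87.7 in NAC. All 3 groups overlapped, and its log2 fold change in PQ over control was 0.02, with plus and minus 2 standard errors from -0.17 to 0.21. Tyk2 (NCBI gene 54721), the kinase of IFNAR1, had 29.5 and 31.7 CPM in control, 40.5 and 37.8 in PQ, and 23.7 and 29.8 in NAC. Both PQ libraries lay above the other 4. The log2 fold change of Tyk2 was 0.36 in PQ over control (standard error 0.13), which missed the threshold (edgeR adjusted p = 0.062, unadjusted p = 0.013), and -0.20 in NAC over control (SE 0.13, edgeR adjusted p = 0.34). PQ over NAC passed it, with a log2 fold change of 0.55 (SE 0.13, edgeR adjusted p = 0.0031). Without NAC 1, the lower of the NAC libraries, this value was 0.40 and no longer passed (adjusted p = 0.082 by edgeR, within 3.5e-04 to 0.082 over the 13 alternatives).

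Stat2 and Irf9 supply ISGF3 with its transactivating subunit and its DNA-binding subunit. Stat2 (NCBI gene 20847) is shown with its promoter window because 1 ISRE core was found there. The window (RefSeq, GRCm38.p6, plus strand, chr10:128270248-128270547, 250 bases before to 50 after the annotated start) was searched on both strands for the core GAAANNGAAA, which is TTTCNNTTTC on the opposite strand. Capitals mark the match, which reads on the opposite strand.
Stat2: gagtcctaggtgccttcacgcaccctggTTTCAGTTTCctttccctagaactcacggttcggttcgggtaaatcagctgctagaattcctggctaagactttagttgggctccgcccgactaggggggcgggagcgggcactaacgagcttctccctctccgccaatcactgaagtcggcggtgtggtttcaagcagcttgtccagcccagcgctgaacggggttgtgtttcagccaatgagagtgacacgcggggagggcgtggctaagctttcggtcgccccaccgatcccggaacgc
The ISRE core was present in 3.44% of 32851 promoter windows of this length. The match is a description of the letters and was not tested for binding. Stat2 had 39.9 and 44.3 CPM in control, 63.9 and 54.5 in PQ (mean 59.2 ± 6.63, SD, n = 2), and 44.0 and 44.6 in NAC. The PQ libraries were apart from the other 4, and NAC overlapped control. Its log2 fold change was 0.49 in PQ over control (SE 0.11, edgeR adjusted p = 0.0048), 0.08 in NAC over control (SE 0.12, edgeR adjusted p = 0.71) and 0.42 in PQ over NAC (SE 0.11, edgeR adjusted p = 0.0079). Within the processing of the first pair of libraries, PQ 1 was 1.60 times control 1, and within the second, PQ 2 was 1.23 times control 2. Without PQ 1 the log2 fold change of Stat2 over control was 0.37 and was not called (adjusted p = 0.12 by edgeR, within 7.1e-04 to 0.12 over the alternatives). Over NAC the value was 0.30 without PQ 1 (edgeR adjusted p = 0.15) and 0.41 without NAC 1 (edgeR adjusted p = 0.059), and the adjusted p ranged from 0.0024 to 0.15 over the alternatives.

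Irf9 (NCBI gene 16391) had 26.1 and 23.8 CPM in control, 42.1 and 34.0 in PQ, and 25.4 and 28.2 in NAC. As for Stat2, both PQ libraries were above the other 4 and NAC overlapped control. The log2 fold change of Irf9 was 0.61 in PQ over control (SE 0.13, edgeR adjusted p = 0.0036), 0.10 in NAC over control (SE 0.14, edgeR adjusted p = 0.67) and 0.51 in PQ over NAC (SE 0.13, edgeR adjusted p = 0.0066). PQ 1 was 1.62 times control 1 and PQ 2 was 1.43 times control 2. Without PQ 1 the value over control was 0.45 and was not called (adjusted p = 0.11 by edgeR, within 1.9e-04 to 0.11 over the alternatives). Over NAC it was 0.35 without PQ 1 (edgeR adjusted p = 0.15), 0.44 without NAC 1 (edgeR adjusted p = 0.081) and 0.39 with the labelled processing as a block (edgeR adjusted p = 0.064), and the adjusted p ranged from 0.0014 to 0.15 over the alternatives. The expected counts of Irf9 were fractional in all 6 libraries, and its exons share 123 bases with Rnf31, the neighbouring gene on the same strand, so its level is less certain than that of Stat2. Neither of its 2 promoter windows held an ISRE or GAS core.

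Irf7 and Irf1 are transcription factors whose own genes are induced by cytokines. Irf7 (NCBI gene 54123), the IRF that amplifies interferon alpha production, is shown because it changed most among the members, and its window (GRCm38.p6, minus strand, chr7:141266375-141266674) held no ISRE core, no GAS core (TTCNNNGAA, which reads alike on both strands) and no IRF core (AANNGAAA, contained in every ISRE core).
Irf7: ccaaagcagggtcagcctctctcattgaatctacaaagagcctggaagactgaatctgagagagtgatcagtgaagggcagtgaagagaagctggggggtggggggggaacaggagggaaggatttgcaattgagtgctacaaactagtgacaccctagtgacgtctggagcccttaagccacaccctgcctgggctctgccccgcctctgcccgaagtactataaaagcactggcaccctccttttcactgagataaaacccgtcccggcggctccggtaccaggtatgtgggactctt
The absence of a match says only that these letters are not in these 300 bases. Irf7 had 24.0 and 18.3 CPM in control, 59.8 and 47.1 in PQ (mean 53.4 ± 8.97, SD, n = 2), and 17.0 and 19.1 in NAC. The lowest PQ library was above the highest of the other 4, and control 1 was above the NAC libraries. The log2 fold change of Irf7 was 1.34 in PQ over control (SE 0.15, edgeR adjusted p = 7.6e-06), -0.23 in NAC over control (SE 0.16, edgeR adjusted p = 0.37) and 1.57 in PQ over NAC (SE 0.15, edgeR adjusted p = 3.5e-07). PQ 1 was 2.49 times control 1 and PQ 2 was 2.57 times control 2, so both processings gave nearly the same ratio although both the PQ and the control values differed between them. Over the 13 alternatives the value for PQ over control ranged from 1.15 to 1.55 and was called in each.

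Irf1 (NCBI gene 16362), an IRF that acts early behind both types of interferon receptor and other inflammatory signals, is shown because its first window (GRCm38.p6, plus strand, chr11:53769764-53770063) held 1 GAS core, in capitals.
Irf1: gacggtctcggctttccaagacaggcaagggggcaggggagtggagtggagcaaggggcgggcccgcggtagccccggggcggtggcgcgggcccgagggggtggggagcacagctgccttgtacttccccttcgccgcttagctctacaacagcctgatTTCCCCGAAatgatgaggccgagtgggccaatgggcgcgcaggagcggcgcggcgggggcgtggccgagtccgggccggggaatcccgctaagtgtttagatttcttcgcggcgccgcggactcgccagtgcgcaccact
The GAS core was present in 8.30% of all windows, and it was also found in the windows of Ifnar1 and Ifnar2. Irf1 had 35.7 and 35.9 CPM in control, 56.3 and 47.4 in PQ, and 56.2 and 60.1 in NAC. Both treated groups were above control and overlapped each other. Its log2 fold change was 0.54 in PQ over control (SE 0.12, edgeR adjusted p = 0.0030) and 0.70 in NAC over control (SE 0.11, edgeR adjusted p = 2.1e-04). PQ over NAC was -0.16 (SE 0.11, edgeR adjusted p = 0.28), which was not called. NAC 1 was 1.57 times and NAC 2 was 1.68 times control 2, the control of their own processing. PQ 1 was 1.58 times control 1 and PQ 2 was 1.32 times control 2. Without PQ 1 the value for PQ over control was 0.41 and was not called (adjusted p = 0.091 by edgeR, within 2.7e-04 to 0.091 over the alternatives), whereas the value for NAC over control stayed between 0.65 and 0.76 and was called in all 13. The expected counts of Irf1 were fractional in 3 of the 6 libraries.

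Socs1 (NCBI gene 12703), which binds and inhibits the receptor kinases, was below the filter, with a mean FPKM of 0.777. Its window on the minus strand held 2 overlapping ISRE cores, in capitals in the stretch chr16:10785584-10785639 (GRCm38.p6).
Socs1: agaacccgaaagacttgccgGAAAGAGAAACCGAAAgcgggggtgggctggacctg
Socs1 had 10 and 2 expected counts in control, 19 and 6 in PQ, and 7 and 14 in NAC. The 3 groups overlapped. Fitted without the filter, its log2 fold change in PQ over control was 0.99 (SE 0.62, edgeR adjusted p = 0.35), and plus and minus 2 standard errors ran from -0.26 to 2.23, an interval that includes the spread between libraries. In NAC over control it was 0.70 (SE 0.64, edgeR adjusted p = 0.59). Windows were found for all 9 members, 11 windows in all, since Irf1 and Irf9 have 2 each.

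**Figure D2:**
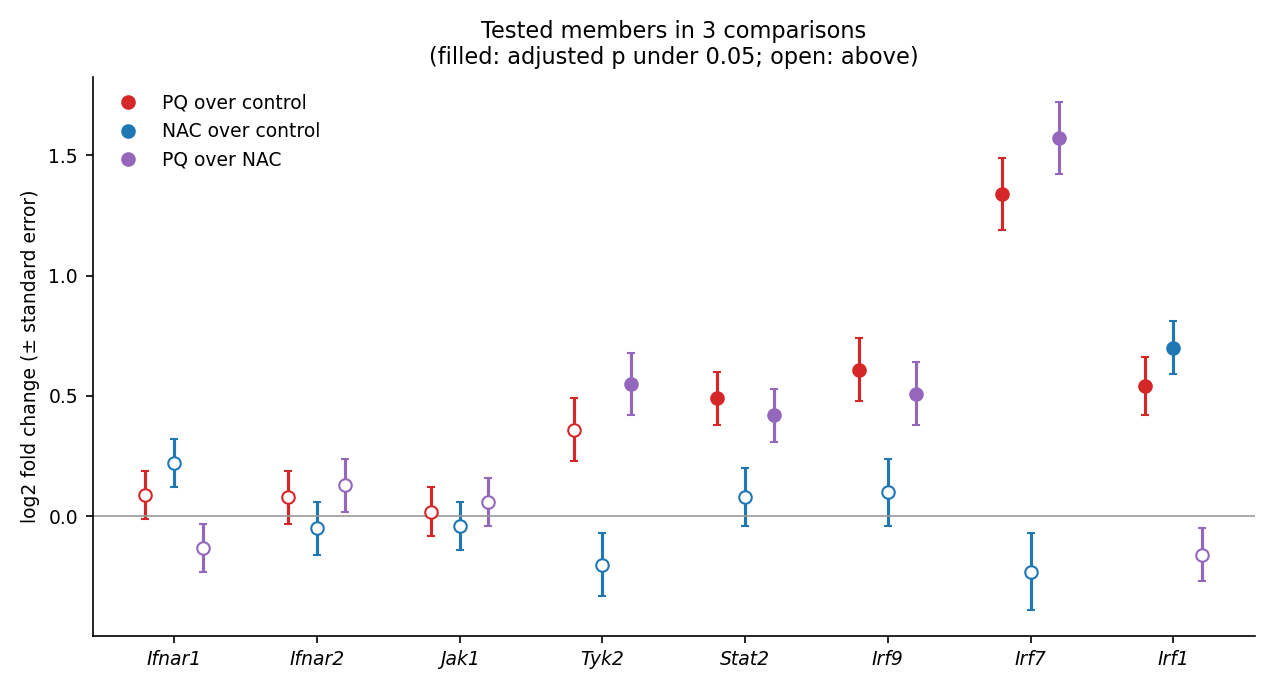
Log2 fold change (y axis) with its standard error for the 8 tested members (x axis) in the 3 comparisons, filled where the adjusted p was under 0.05. Irf7 has the largest values, 1.34 over control and 1.57 over NAC, and Irf1 is filled in both comparisons with control, at 0.54 and 0.70.

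The levels of different genes were compared per transcript length, as FPKM. In control, the mean FPKM was 27.0 for Ifnar2, 20.2 for Ifnar1, 17.0 for Jak1 and 16.4 for Irf1. It was 11.5 for Irf7, 10.2 for Irf9, 9.29 for Stat2, 6.16 for Tyk2 and 0.505 for Socs1. Thus the receptor chains and Jak1 were above Stat2 and Irf9, and Tyk2 was at 6.16 against 17.0 for Jak1. In this order, Irf7 and Irf9 overlapped over the 2 libraries, as did Irf9 and Stat2, and the other neighbours did not. In PQ the order was led by Irf7 at 29.5, which overlapped Ifnar2 at 27.9, followed by Irf1 at 24.1. In NAC it was led by Irf1 at 27.4, while Irf7 was at 10.0, below Stat2 at 10.1 but overlapping it. Socs1 was lowest in every group, at 1.02 in PQ and 0.805 in NAC.

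**Figure D3:**
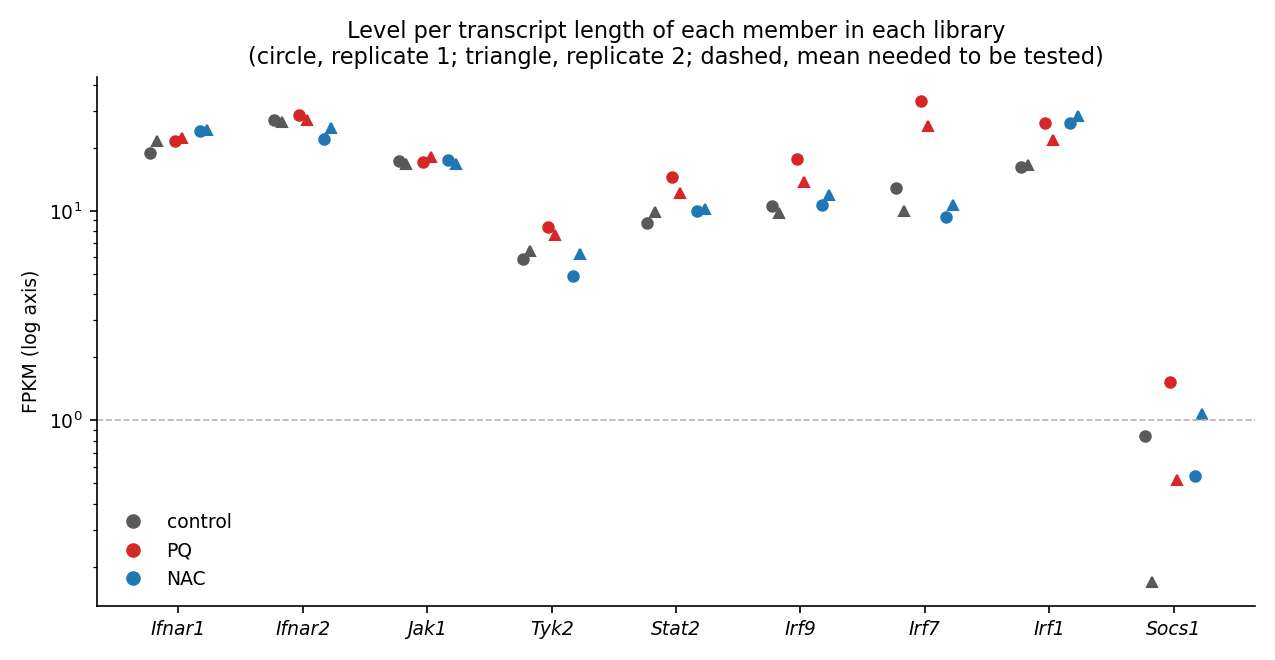
FPKM (log axis) of the 9 members in each library, grouped by gene along the x axis, with circles for replicate 1 and triangles for replicate 2. Irf7 has a mean of 11.5 in control and 29.5 in PQ, and Socs1 is below the other members in every library.

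The ligands of the receptor were scarce. Of 19 interferon genes on the list, which covers types I, II and III, 2 had a read in any library. Ifnb1, interferon beta, had 1 expected count in PQ 1 and 1 in NAC 1 and none in the other 4, at or below the 3 counts taken as the limit of detection, which correspond to between 0.278 and 0.312 CPM. Ifnz, a type I interferon gene with close relatives in its cluster, had 0 and 11.1 expected counts in control, 7.58 and 11.7 in PQ, and 8.59 and 6.43 in NAC. These Ifnz values were fractional, and the groups overlapped. The 17 others, among them the interferon alpha genes and Ifng, were not listed in any library and were taken as 0.

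Among the other STATs, Stat3, which acts behind gp130 cytokines, had a log2 difference of 0.47 in NAC over control (edgeR adjusted p = 0.0015), called in all 13 alternatives, and of 0.02 in PQ over control. Stat5b had 0.45 in NAC (edgeR adjusted p = 0.017), which was not called without control 1 (0.32, edgeR adjusted p = 0.12) or without NAC 2 (0.34, edgeR adjusted p = 0.18), with the labelled processing as a block (0.31, edgeR adjusted p = 0.13) or in either limma fit, within 0.0014 to 0.18 over the alternatives.

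Of the other IRFs and IRF-binding proteins, 5 were tested. Irf2, and Irf3, an IRF activated by phosphorylation behind nucleic acid sensors, were at log2 differences of 0.00 and -0.07 in PQ over control. Irf2bpl was higher in PQ (0.45, edgeR adjusted p = 0.0023), a call lost without PQ 1 (0.38, edgeR adjusted p = 0.064, within 1.9e-04 to 0.064 over the alternatives). Irf2bp2 was lower in NAC than in control (-0.50, edgeR adjusted p = 0.0014).

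Of 9 tested genes for other JAKs and receptor chains, 3 were higher in PQ than in control, namely Ifngr2, Cntfr and Jak3. The median log2 fold change of these 9 was -0.04, and 9.76% of all tested genes were higher in PQ. Ifngr2, a chain of the interferon gamma receptor, had a log2 difference of 0.54 and Cntfr had 1.11, and both were called in all 13 alternatives. Jak3 had 0.64 (edgeR adjusted p = 0.023) and was not called without control 1 (0.45, edgeR adjusted p = 0.18), without PQ 1 (0.65, edgeR adjusted p = 0.11), without PQ 2 (0.63, edgeR adjusted p = 0.089), by DESeq2 or in either limma fit, within 0.0056 to 0.18 over the alternatives. In NAC over control, Il6st, which encodes gp130, and Lifr were higher (0.45 and 0.52), and Il6ra was lower (-0.93). Over all tested genes, 9.01% were higher in NAC and 9.64% lower. The call of Lifr was lost without NAC 1 (0.45, edgeR adjusted p = 0.061, within 2.2e-04 to 0.061 over the alternatives).

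Of 14 tested genes listed as negative regulators of JAK-STAT signalling in general, Usp18 and Dusp4 were higher in PQ than in control. Over all tested genes, 9.76% were higher in PQ. Usp18, the interferon-inducible protein that holds back signalling at IFNAR2, had 10.4 and 11.1 CPM in control, 37.1 and 24.5 in PQ, and 13.3 and 10.2 in NAC. Both PQ libraries were above the other 4, and its log2 difference from control was 1.52 (SE 0.19, edgeR adjusted p = 2.6e-05). Dusp4 had 0.29 (edgeR adjusted p = 0.036) and was not called without control 1 (0.23, edgeR adjusted p = 0.17), without PQ 1 (0.31, edgeR adjusted p = 0.15), without PQ 2 (0.27, edgeR adjusted p = 0.17) or with the labelled processing as a block (0.29, edgeR adjusted p = 0.054), within 0.027 to 0.17 over the alternatives. The tested Socs, Pias and Ptpn genes of the list had log2 differences between -0.37 and 0.21, and the median of the list was -0.03.

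Genes listed as ISRE-type or GAS-type targets were read beside the ISGF3 subunits. Whether ISGF3 acts on these genes was not tested. Of 26 tested genes of an ISRE-type target list, 24 were higher in PQ than in control, with a median log2 fold change of 1.00, and the other 2 were Ddx60 and Dhx58. Without PQ 1, 19 of the 26 were higher, with a median of 0.84. In NAC over control 7 were higher and 1 (Dhx58) was lower, with a median of 0.19. Over all tested genes, 9.76% were higher in PQ and 9.01% in NAC, each over control, and 9.64% were lower in NAC. The study's own interferon gene list, which was drawn from genes that differed in these PQ and NAC treatments, holds 20 of these 26 genes, Usp18 among them, as well as Stat2, Irf9 and Irf7, so their direction is not independent evidence. Of the 6 tested ISRE-type genes outside it (Ifit2, Oasl1, Oasl2, Parp14, Irgm1 and Igtp), 6 were higher in PQ, with a median of 1.16, and 5 were without PQ 1. In NAC 3 of these 6 were higher, with a median of 0.41. The ISRE-type list was chosen with earlier results of these data known, so the direction of these 6 is not independent evidence either. The GAS-type list held 12 tested genes, of which 7 were higher in PQ (4 without PQ 1) and 6 in NAC, each over control, with medians of 0.52 and 0.30. The study's list holds 3 of these 12. Of the 9 outside it, 5 were higher in PQ, with a median of 0.42, and 5 in NAC, with a median of 0.48. Without PQ 1, 3 of the 9 were higher in PQ. Gbp2, an interferon-inducible GTPase, had 29.8 and 25.2 CPM in control, 105 and 88.8 in PQ, and 121 and 119 in NAC. Like Irf1 it was higher in both treatments, with log2 fold changes of 1.81 in PQ (edgeR adjusted p = 8.8e-08) and 2.13 in NAC (edgeR adjusted p = 8.7e-10). Gbp3 had log2 differences of 1.28 and 1.40, and Cxcl10 had 1.48 and 0.74. Tap1 was higher in PQ (0.62, edgeR adjusted p = 0.0068), a call lost without PQ 1 (0.40, edgeR adjusted p = 0.19, within 2.3e-04 to 0.19 over the alternatives), and had -0.20 in NAC.

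**Figure D4:**
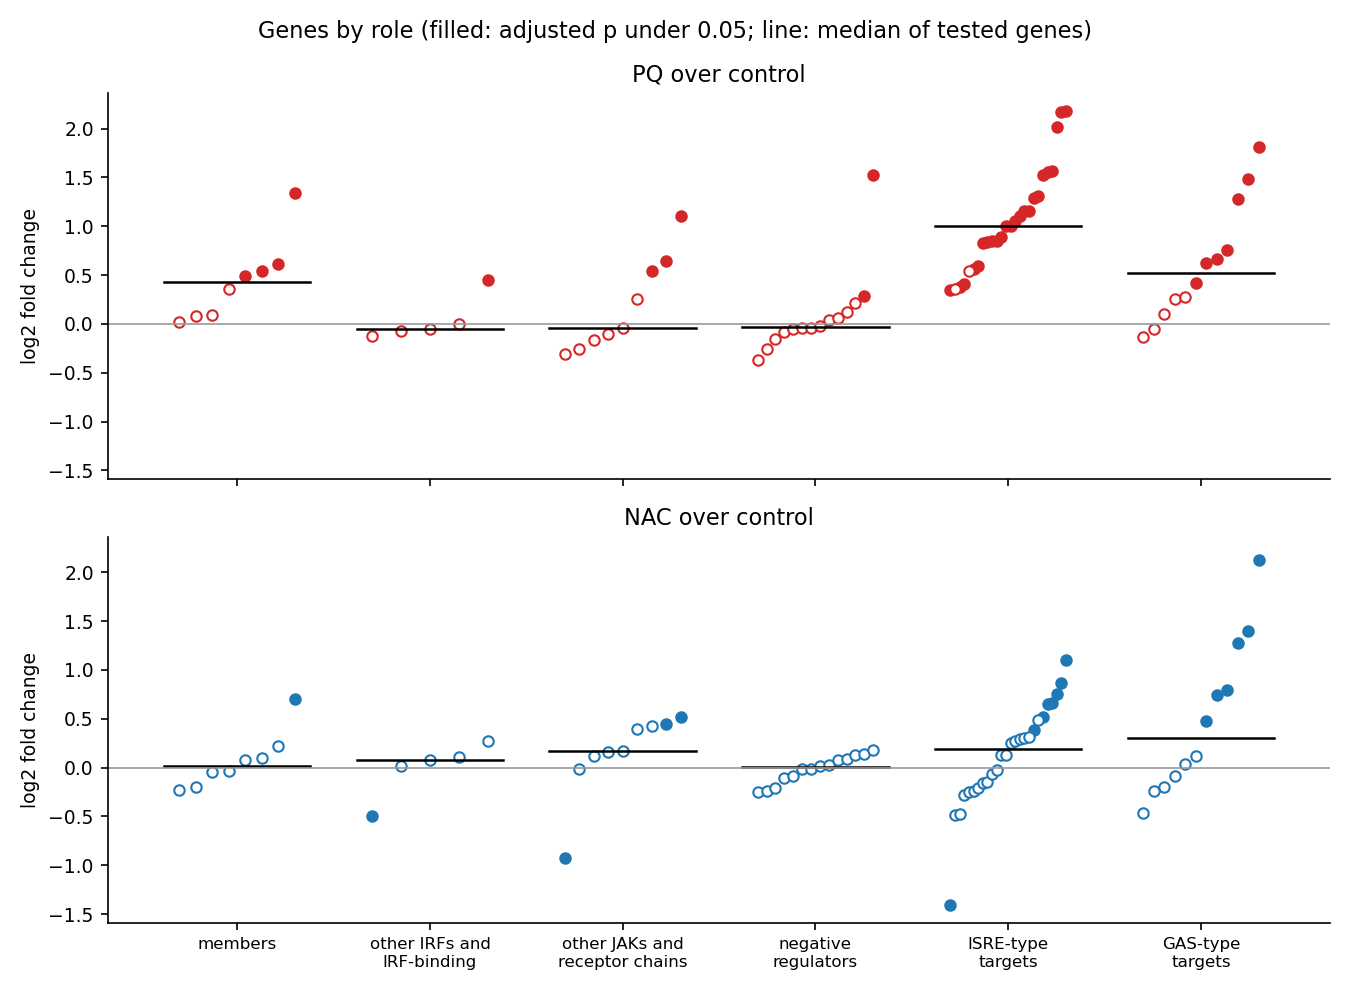
Log2 fold change over control (y axis) of the tested genes of the lists named on the x axis in PQ (upper panel) and NAC (lower panel), filled where the adjusted p was under 0.05, with a line at each list's median. The ISRE-type genes have medians of 1.00 in PQ and 0.19 in NAC, and the GAS-type genes 0.52 and 0.30.

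For each tested member, the 3 genes with the closest pattern over the 6 libraries were taken by Euclidean distance of log2 CPM centred on the gene's mean. Those nearest to Irf7 were Celf5, Oasl1 and Apol9b, at distances of 0.27, 0.32 and 0.35, where the median distance of all tested genes from Irf7 was 1.76. The genes nearest to Stat2 were Gng7, Dnajb2 and Aldh2, and those nearest to Irf9 were Ube2g2, Tmem35a and Tmem19. For Irf1 they were Pcdhb9, Clip2 and Fhdc1. Tyk2 was nearest to Klc2, Cpeb4 and Suox, Ifnar1 to Epb41l5, Cuedc1 and Smad3, Ifnar2 to Rexo4, Polr1d and Snx22, and Jak1 to Lats1, Larp4b and Septin2. With 6 libraries in 3 groups, many genes share a pattern, and this is a description with no test.

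The labelled cell type was checked against marker lists. Of 8 markers of neural stem and progenitor cells, 7 were tested, and their summed FPKM was 3280 and 3360 in control, 3640 and 3690 in PQ, and 2540 and 2460 in NAC, most of it from Vim. Prom1 had at most 4 counts. Vim was lower in NAC than in control (-0.75), in all 13 alternatives. Nes was called higher in PQ and lower in NAC, calls lost without PQ 1 or PQ 2 (0.34 and 0.35) and, for NAC, when any 1 library was left out (-0.30 to -0.25), with the labelled processing as a block (-0.29), with the 4 libraries compared (-0.27) or in either limma fit (-0.23). Sox2 was called lower in both, calls lost for PQ without control 1, PQ 1 or PQ 2 (-0.37 to -0.23) and for NAC without control 1, NAC 1 or NAC 2 (-0.34 to -0.19), with the block (-0.26) or in either limma fit (-0.26). Of 10 microglia and macrophage markers, Tyrobp was not listed, Aif1 and C1qa had at most 1 count, C1qb at most 2, and Csf1r and Ptprc at most 3 in any library. Cx3cr1, below the filter, had 19.8 to 33.9 expected counts, and Itgam had at most 4.93. The summed FPKM of the 10 markers was 3.20 and 3.03 in control, 5.90 and 5.02 in PQ, and 5.92 and 4.71 in NAC. P2ry12 or, in PQ 1, Cd68 was the most abundant. Of the 2 tested genes, P2ry12 was higher in NAC than in control (1.18, edgeR adjusted p = 0.0033), a call lost without NAC 1 (0.86, edgeR adjusted p = 0.090, within 2.3e-05 to 0.090 over the alternatives). Cd68 had 1.15 and 1.01 CPM in control, 2.58 and 1.88 in PQ, and 1.30 and 1.09 in NAC, and its log2 difference in PQ over control was 1.05 (SE 0.42, edgeR adjusted p = 0.093). Endothelial markers summed to at most 0.620 FPKM and those of fibroblasts or pericytes to at most 2.07.

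Of 5 astrocyte markers, 3 were higher in NAC than in control, where 9.01% of all tested genes were higher. Gfap and Aqp4 were called in all 13 alternatives, and Slc1a3 (0.29) was not called when any of control 2, PQ 1, PQ 2, NAC 1 or NAC 2 was left out, at 0.19 to 0.31, or with the labelled processing as a block, at 0.33. In PQ over control Slc1a3 was lower (-0.48), in all 13 alternatives. Aldh1l1 was higher in PQ (1.17, edgeR adjusted p = 0.0035), a call lost without PQ 1 (0.93, edgeR adjusted p = 0.091, within 1.3e-05 to 0.091 over the alternatives), and had -0.49 in NAC over control (edgeR adjusted p = 0.31). The astrocyte list had a summed FPKM of 110 and 96.6 in control, 78.1 and 79.7 in PQ, and 135 and 134 in NAC. The summed FPKM of 7 oligodendrocyte-lineage markers was between 652 and 926, most of it from Olig1 and Olig2, and Sox10 had at most 1 count. Olig1 and Pdgfra were called higher in NAC than in control (0.41 and 0.40). These calls were lost without control 1 or NAC 2 for Olig1 (0.25 and 0.27) and Pdgfra (0.33 and 0.29), and with the labelled processing as a block for both (0.37 for each). The call of Olig1 was also lost in both limma fits (0.46 in each). Of 6 neuronal markers, Map2 was the most abundant, was the 1 tested, and was higher in NAC than in control (0.77, edgeR adjusted p = 1.1e-05). Rbfox3 was not listed. Tubb3, below the filter, had 4.26 and 2.31 CPM in control, 1.24 and 0.835 in PQ, and 0.557 and 0.761 in NAC. Syt1, also below it, had 0.833 and 1.11 CPM in control, 1.24 and 1.25 in PQ, and 0.279 and 0.496 in NAC. The part of the cells these markers stand for in the values of the 9 members was not tested.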

How the data were processed

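The members, the gene lists and the tests were chosen with earlier results of these data known. Per library, the deposited table holds, for each gene, the authors' expected count, their FPKM and a mean transcript length. The labels of 2 libraries name TopHat2 2.0.11 and Cufflinks 2.1.1, and those of the other 4 name HISAT2 2.0.4, Bowtie2 2.2.5 and RSEM, yet all 6 tables have the columns that RSEM writes. Whether counting used strand is not given in the sources used here. Genes not listed were taken as 0. NCBI gene identifiers were matched to symbols in the RefSeq table of GRCm38.p6, for 99.7% of genes. Expected counts were rounded, and genes whose FPKM averaged 1 or more were fitted in edgeR 4.0.16 (R 4.3.3; TMM, glmQLFit and glmQLFTest, 3 groups, 6 libraries). Each standard error was taken from the estimate and its F value. CPM are expected counts scaled to the TMM-adjusted library total. Alternatives were DESeq2's size factors, DESeq2 1.42.0, no filter, the labelled processing as a block, the 4 libraries compared, leaving out each library, and limma 3.58.1 on log2(FPKM + 1) and log2(FPKM + 0.1). The fits were tested on simulated data. Replicate libraries differed beyond sampling noise, with a chi-square per degree of freedom of 4.11 to 6.91. The floor of 3 counts covers counting error only, and the intervals of 2 standard errors include the spread between libraries. Named genes were the members, the listed genes called, the ligands and the 3 nearest genes of each member, and those printed were picked after their values were seen.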

Additional observations from a re-analysis of the deposited data

Results flagged for a closer look

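The mean transcript length that the tables give for Ifnar2 differed between groups, a difference in a column other than the counts that were tested. It was 1437 and 1430 bases in control, 1463 and 1519 in PQ, and 1688 and 1607 in NAC, so the mean of the NAC libraries was 1.15 times that of control. The value weights the annotated transcripts of a gene by their estimated abundance, and 2 transcripts of Ifnar2 entered it. GENCODE vM1 lists 8 coding transcripts of Ifnar2, from 712 to 3047 bases, and the authors' transcript set may differ. Among 2837 tested genes with several transcripts, 0.388% had both NAC lengths at least 10% outside both control lengths. An exact two-sided permutation test of 2 against 2 libraries cannot go below p = 0.333, and no test of this difference was made. The FPKM of Ifnar2 divides by this length and had a mean of 27.0 in control and 23.4 in NAC, where limma gave log2 differences of -0.20 and -0.21 with the larger and the smaller pseudocount. The CPM of Ifnar2, which do not use this length, overlapped between control and NAC, and edgeR gave -0.05.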

How the results depend on the processing

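Of 312 refitted log2 fold changes of members, 299 kept their direction and their side of the threshold, 9 lost the call and 4 changed sign, all of Jak1. Leaving out each library in turn, where 1 library left in a group is assumed to vary like the other groups, gave 1 to 4 called members in PQ over control and 1 to 4 in PQ over NAC. All genes called ranged from 866 to 2206 in PQ over control, from 1286 to 2126 in NAC over control and from 2343 to 4207 in PQ over NAC, against 2250, 2186 and 3708 with all libraries. The same refits gave, in PQ over control, -0.03 to 0.07 for Jak1, 0.37 to 0.60 for Stat2, 0.45 to 0.75 for Irf9 and 0.41 to 0.65 for Irf1. In PQ over NAC they gave 0.40 to 0.73 for Tyk2, 0.30 to 0.53 for Stat2 and 0.35 to 0.65 for Irf9. With the labelled processing as a block, Irf9 had 0.39 in PQ over NAC. Limma gave Jak1 0.00 in NAC over control with either pseudocount, against -0.04. The lowest counts in PQ over control were those without PQ 1. For these changes the cause was not tested. No paired analysis by replicate number was possible because the labels give no shared replicate numbers, and the labelled processing, which joins control 1 with PQ 1 and the other 4 libraries, was the block. Socs1 and the ligands had at most 19 counts in any library, which limits their precision.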
